A study of Mus musculus with 16 samples.

Results

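The regions described here were 969 bins of 10 kb, out of 127112 eligible autosomal bins, in which mouse metaphase II (MII) oocytes of prepubertal origin carried more CpG methylation than oocytes of adult females. A bin was eligible when each of the 16 libraries held at least 10 methylation calls in it. It was chosen when the lower of the means of the 2 prepubertal groups exceeded the higher of the means of the 2 adult groups by at least 15 percentage points. The measured levels of all 16 libraries therefore chose the bins, and the difference between the prepubertal and the adult groups is given below as a description without a test. Chromosome X, with 2943 eligible bins, was kept apart.

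Each library was made from a pool of oocytes of C57BL/6J X CBA/Ca F1 females, the same cross in all 4 groups. In a pool, a lower level in every oocyte and methylation in fewer of the oocytes cannot be told apart. In the 4 in vitro follicle culture (IFC) libraries, preantral follicles had been taken from females of 13 days and cultured for 10 days, which gives the labelled age of 23 days. Per the paper, the culture medium held recombinant follicle-stimulating hormone. Recombinant human chorionic gonadotropin with epidermal growth factor was then given as the ovulatory stimulus. The 5 superovulated prepubertal (SO) libraries came from females of 23 days that received 2.5 IU of equine (eCG) and of human (hCG) chorionic gonadotropin, and the 4 superovulated adult (SOA) libraries from females of 10 weeks that received 5 IU of each, so that age and dose differed together. The 3 in vivo (IV) libraries came from females of 10 weeks that ovulated without injected hormones. No adult group was cultured, and no prepubertal group went without gonadotropins. Post-bisulfite adapter tagging (PBAT), which adds adapters by random priming after the bisulfite treatment and reads an unconverted cytosine as methylated, gave between 5218053 and 23065411 CpG calls per library. All IFC libraries, SO1, SO2 and SOA1 to SOA3 were below 12 M calls, and the others above, so that depth went in part with the groups.

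DNA methylation of the mouse oocyte is laid down after birth, while the oocyte grows, by the methyltransferase DNMT3A with its cofactor DNMT3L. It accumulates over the bodies of genes that the growing oocyte transcribes, where histone H3 carries methylated lysine 36, and most CpG-rich gene starts and untranscribed intergenic DNA stay unmethylated. The oocyte genome is thus a patchwork of highly and lowly methylated domains, and a transcript that starts in a new place can bring methylation to a whole stretch downstream of it.

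The identity of the samples was checked at imprinted genes, which oocytes methylate or leave bare according to the parental origin of the imprint. Within 1000 bp of their annotated starts, the maternally methylated Snrpn, Kcnq1ot1, Zrsr1 and Peg3 had 99.0%, 96.8%, 95.8% and 92.4% methylated calls over all libraries, and Peg10 84.9%. A window upstream of H19, which sperm and not oocytes methylate, had 1.91%, with no library above 3.92%. The windows at Mest, Grb10, Impact and Plagl1 held 36.1%, 15.1%, 1.92% and 1.85%. All the windows at gene starts, those with high values included, lie at the outermost annotated start. None of them was checked against the imprinted region itself. The window at Snrpn held only 101 calls in all, with 0 in the library with the fewest. The lowest value at Peg3, 77.1%, was that of IV1, the library in which all eligible bins together had the highest mean, 45.3%, against 40.8% to 43.5% in the other libraries.

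Sequences of a few windows are shown because they carry the contrast between the start and the body of the genes that hold the chosen bins. All are from GRCm38.p6 as given by RefSeq, 5′ to 3′, in lower case with each CpG, the dinucleotide that is methylated and measured, in capitals. Prkag2, which encodes a regulatory subunit of the energy sensor AMPK, has a CpG-rich first start, shown by the 250 bases before it, and an inner start with few CpGs that lies in a chosen bin. The windows in gene bodies are the most CpG-rich 300 bases of each gene's chosen bins that touch no annotated exon. Those of Prkag2, Klf12 and Dlgap2 were picked from the 23 such windows for a clear difference, after their values had been seen.
Prkag2, before the first start, chr5:25100643-25100892, minus strand: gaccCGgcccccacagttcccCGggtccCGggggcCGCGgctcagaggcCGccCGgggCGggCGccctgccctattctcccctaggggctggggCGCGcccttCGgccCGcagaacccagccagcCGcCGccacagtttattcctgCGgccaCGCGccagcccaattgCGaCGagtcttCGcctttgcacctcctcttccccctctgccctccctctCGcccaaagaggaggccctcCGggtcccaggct
Prkag2, before the inner start, chr5:24995754-24996003, minus strand: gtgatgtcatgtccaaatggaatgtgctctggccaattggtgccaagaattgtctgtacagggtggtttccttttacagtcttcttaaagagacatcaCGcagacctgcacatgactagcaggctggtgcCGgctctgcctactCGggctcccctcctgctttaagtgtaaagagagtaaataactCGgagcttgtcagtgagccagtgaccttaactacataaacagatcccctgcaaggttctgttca
Prkag2, intron, chr5:25081641-25081940, plus strand: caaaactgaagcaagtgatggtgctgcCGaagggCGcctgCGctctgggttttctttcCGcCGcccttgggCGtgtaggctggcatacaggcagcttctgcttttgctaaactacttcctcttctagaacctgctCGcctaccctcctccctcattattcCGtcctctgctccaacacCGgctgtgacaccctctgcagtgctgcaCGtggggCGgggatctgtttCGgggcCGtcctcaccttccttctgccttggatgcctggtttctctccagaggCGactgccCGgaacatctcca
Klf12, intron, chr14:100105761-100106060, plus strand: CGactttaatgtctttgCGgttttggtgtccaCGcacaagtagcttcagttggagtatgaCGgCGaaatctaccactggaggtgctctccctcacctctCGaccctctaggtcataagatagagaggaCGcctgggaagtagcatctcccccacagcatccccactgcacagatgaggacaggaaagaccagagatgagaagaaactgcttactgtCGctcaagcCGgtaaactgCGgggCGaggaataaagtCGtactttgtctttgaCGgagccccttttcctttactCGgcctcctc
Dlgap2, intron, chr8:14660201-14660500, plus strand: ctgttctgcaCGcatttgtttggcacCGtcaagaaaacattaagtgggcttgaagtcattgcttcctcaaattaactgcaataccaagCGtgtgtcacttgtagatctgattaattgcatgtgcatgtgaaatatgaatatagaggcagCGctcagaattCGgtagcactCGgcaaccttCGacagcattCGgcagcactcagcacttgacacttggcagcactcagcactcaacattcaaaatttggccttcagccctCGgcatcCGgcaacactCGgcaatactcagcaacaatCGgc
Sgpp2, before the start, chr1:78310096-78310345, plus strand: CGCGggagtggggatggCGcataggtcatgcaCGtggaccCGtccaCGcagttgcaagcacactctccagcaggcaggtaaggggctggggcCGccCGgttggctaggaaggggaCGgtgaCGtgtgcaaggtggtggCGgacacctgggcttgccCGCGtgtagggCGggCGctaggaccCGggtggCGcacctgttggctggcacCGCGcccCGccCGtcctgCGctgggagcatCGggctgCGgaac

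The calls in these windows, pooled within each group, were few, and their 95% Wilson intervals cover counting error only. Before the first start of Prkag2, with 23 CpGs, 0 of 55 calls were methylated in IFC and 4.17% of 48 in SO, against 2.33% of 43 in SOA and 0 of 55 in IV. A count of 0 in 55 calls allows a level of up to 5.45% (3 counts). In the intron of the same gene, 18.9 kb from the start, 20 of 25 calls were methylated in IFC (60.9% to 91.1%) and 58.9% of 73 in SO (47.4 to 69.5). The same window held 26.3% of 19 calls in SOA (11.8 to 48.8) and 25.9% of 58 in IV (16.3 to 38.4). The inner start shown stood at 14 of 17 methylated calls in IFC and 7 of 14 in SO, against 2 of 5 in SOA and 4 of 13 in IV. A further inner start, with 34 CpGs and in no chosen bin, held 3.39% of 59 methylated calls in IFC and 9.57% of 94 in SO. In SOA it held 1.41% of 71 and in IV 4.33% of 208. The CpG-rich starts thus had little methylation in any group. The groups differed in the intron window, which was picked for a difference.

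The window of Klf12, a zinc-finger transcription factor of the Krüppel-like family, held 68.0% of 25 methylated calls in IFC and 48.0% of 25 in SO, against 4.35% of 23 in SOA and 8.70% of 23 in IV. In Dlgap2, which encodes a scaffold protein of the postsynaptic density, the window was almost fully methylated in IFC (22 of 22 calls) and SO (29 of 30), and held 18 of 35 calls in SOA and 10 of 25 in IV. Sgpp2, a phosphatase of sphingosine 1-phosphate, had a CpG-rich start that lay in a chosen bin and was itself methylated. That start held 18 of 20 methylated calls in IFC and 71 of 84 in SO, against 29 of 38 in SOA and 33 of 69 in IV.

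The shown windows were not typical of all 23. IFC and SO were both above SOA and IV in 14 of them, and 3 windows were under 10% in all groups.

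Gene starts with little methylation were the common case. Of the 25 genes with the most chosen bins, 17 were found in the RefSeq table, with 27 starts and a median of 21.0 CpGs in the 250 bases before the start, against 6.00 over the 32851 starts of the whole table. At least 20 calls were present at 26 of these starts, and 18 were below 5% methylation with all libraries pooled. Only the start of Sgpp2 (71.6%) and both starts of Dysf (80.8% and 79.2%) were above 70%. Dysf encodes dysferlin, a protein of membrane repair. Of the 969 chosen bins, 79 (8.15%) held an annotated gene start, against 16.1% of all eligible bins. Among the 934 bins with the opposite pattern, high in SOA and IV, 90 (9.64%) held one. A low share was thus not particular to the chosen bins.

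The label of these regions, methylated only in prepubertal-origin oocytes, was not borne out as worded, because the adult oocytes were seldom unmethylated there. Both adult means were below 20% in 203 bins (20.9%), the higher of them was between 20% and 50% in 531 (54.8%), and it was 50% or more in 235 (24.3%). No bin, chosen or not, had both prepubertal means above 80% and both adult means below 20%. The bins are therefore called prepubertal-high below. Over the 969 bins, the median level was 63.6% in IFC and 59.8% in SO, against 32.4% in SOA and 31.5% in IV. Among the eligible bins, 41.5% were below 20% in both adult groups and 41.6% were at 50% or more in the higher, so that the middle range held 16.9% of the eligible and 54.8% of the prepubertal-high bins.

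Averaged over the prepubertal-high bins, methylation was 63.9%, 66.3%, 62.6% and 58.7% in IFC1 to IFC4 and 62.8%, 63.3%, 55.0%, 59.8% and 59.4% in SO1 to SO5. It was 34.2%, 36.6%, 34.2% and 32.3% in SOA1 to SOA4 and 37.1%, 31.1% and 32.9% in IV1 to IV3. The lowest prepubertal library, SO3, stood well above the highest adult library, IV1, which the choice of the bins largely fixed. Averaged by group, there was an IFC mean of 62.9% ± 3.15 (SD, n = 4), an SO mean of 60.1% ± 3.32 (SD, n = 5), an SOA mean of 34.3% ± 1.78 (SD, n = 4) and an IV mean of 33.7% ± 3.04 (SD, n = 3). Over all eligible bins, the same means were 42.2%, 42.3%, 42.3% and 42.8%, so that the total level did not separate the groups. In a single bin a library had a median of 27 to 125 calls, and the median standard deviation between the libraries of a group was 6.28 to 9.25 points, so that values of single bins are less firm than those of genes and runs.

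**Figure D1:**
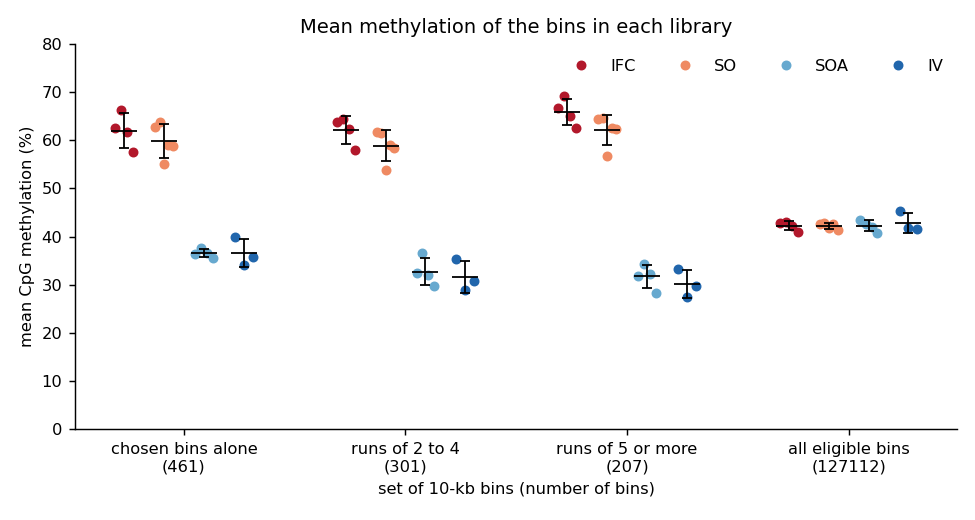
Mean CpG methylation (%) in each library (points) of the prepubertal-high bins that stood alone, in runs of 2 to 4 and in runs of 5 or more, and of all eligible bins, with the group mean and SD (black). The IFC and SO libraries lie between 53.8% and 69.1% in the chosen bins and the SOA and IV libraries between 27.4% and 39.9%, while all 16 lie between 40.8% and 45.3% over all eligible bins.

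The levels of SO and SOA were also set side by side within libraries of like depth. All these libraries took part in the choice of the bins, which largely fixed the direction, so the values are a description. Among the shallow libraries, SO1 and SO2 averaged 63.1% and SOA1 to SOA3 35.0% in the prepubertal-high bins. Among the deep libraries, SO3 to SO5 averaged 58.1% and SOA4, the only deep one of its group, 32.3%. SO was above SOA in 969 of the 969 bins in the first set and in 967 in the second, and in 62430 and 76272 of all 127112 eligible bins. IFC had no deep library and IV no shallow one, so that depth went in part with culture and with natural ovulation. Among the prepubertal libraries, IFC could be set at like depth only beside SO1 and SO2, as given below. Among the adult libraries, IV could be set so only beside SOA4.

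All 9 prepubertal libraries were above all 7 adult libraries in 429 of the 969 bins (44.3%). The same held in 0.419% of all eligible bins, and since the rule used this contrast nothing is read from the count. At the limit of the rule, the 5 bins just inside had gaps of 15.01 to 15.04 points and the 5 just outside 14.97 to 14.99. The bin just inside at chr3:65210001-65220000 had 37.9% in IFC and 33.0% in SO, against 14.9% in SOA and 17.9% in IV. The one just outside at chr1:178730001-178740000 had 46.5%, 44.1%, 29.1% and 27.4%. Bins on either side of the limit were thus alike.

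To see how a library behaved where it had no part in the choice, the rule was applied 16 times with 1 library left out. Between 894 and 1065 bins were then chosen, of which 854 to 946 were among the 969. A left-out prepubertal library stood above the higher adult mean by 17.0 points (SO3) to 28.1 points (IFC2), averaged over the bins chosen without it. A left-out adult library stood below the lower prepubertal mean by 18.8 points (SOA2) to 26.9 points (IV2). Each of the 16 libraries thus lay on the side of its group. The distances were 14.2 to 24.2 points in bins that stood alone and 22.5 to 35.0 points in runs of 5 or more. The other libraries of the same groups took part in each choice, so these values are a description and not an independent replication.

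**Figure D2:**
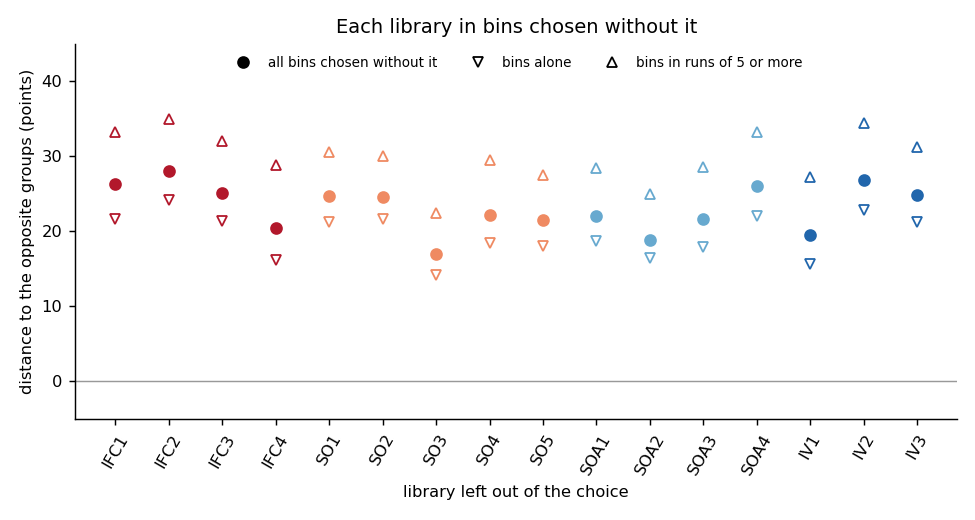
Distance in percentage points of each library from the nearer mean of the opposite groups, averaged over the bins chosen without that library (filled), over those that stood alone (triangles down) and over those in runs of 5 or more (triangles up). All values are above 0, from 14.2 in bins alone to 35.0 in runs.

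The prepubertal-high bins were clustered in part. With bins joined into a run when their starts were at most 20 kb apart, there were 610 runs, of which 461 were 1 bin. Only 24 runs held 5 bins or more, yet these contained 207 bins (21.4%), and 8 runs of 10 or more contained 117 (12.1%). With a distance of up to 100 kb, 338 bins (34.9%) lay in clusters of 5 or more. The 934 bins with the opposite pattern, high in SOA and IV, had 144 (15.4%) in runs of 5 or more, and the 599 bins high in IFC alone had 23 (3.84%). Clustering was therefore not particular to the prepubertal-high bins. In the longer runs the gap was wider, with a median of 26.1 points in runs of 5 or more, 20.9 in runs of 2 to 4 and 18.4 in bins alone. Since the whole pattern was chosen by level, the order is a description.

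The bins lay on every autosome. Chromosome 18 had the highest share, with 77 of 4673 eligible bins (1.65%), of which Tcf4 held 27 and Zfp521 24. Chromosome 13 had the lowest, with 26 of 6399 (0.406%). The share over all autosomes was 0.762%.

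Each of the 24 long runs lay in a gene. The longest, of 24 bins over 280 kb, filled nearly the whole of Zfp521. Next came a run of 17 bins in Npas3 (chr12:53650001-53860000), runs of 17 and 10 in Tcf4, a run of 15 in Klf12 (chr14:100070001-100240000), of 14 in Atrnl1 (chr19:57620001-57770000), of 10 in Prkag2 (chr5:24990001-25090000), of 10 in Dlgap2 (chr8:14580001-14700000), of 8 in Mark1 (chr1:184900001-184990000) and of 7 in the protein-coding gene 1700025G04Rik (chr1:152010001-152090000). Runs of 7 also lay in Kif26b (chr1:178620001-178720000) and 9530059O14Rik (chr9:122580001-122650000). In the run of Mark1, a kinase of microtubule-associated proteins, IFC had 66.8%, SO 60.5%, SOA 28.5% and IV 27.3%. Its 10 flanking bins had 8.21%, 6.67%, 7.18% and 7.93%, which separated the run from its surroundings in the prepubertal groups and much less in the adult groups. Around the run of Dlgap2 it was the reverse: the run had 67.4% in IFC and 39.6% in SOA, and its flanks 77.8% and 71.3%, so that the run stood out as a dip in the adult oocytes.

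A run ends where bins fail the rule, so a drop in the difference at its edges is set by the choice, and the values there are a description. Across the 24 runs, the outermost bins differed by 29.6 points between the prepubertal and the adult means, and the bins 10 kb further in by 34.1 points. The first bins outside the runs differed by 10.6 points, the second by 6.26, and those from 30 to 100 kb away by 1.20 to 4.61. Averaged over the runs, SOA and IV had 29.0% and 27.0% just outside and 32.4% and 32.3% in the outermost bins. IFC and SO went from 38.9% and 38.4% to 63.2% and 60.6%. The small change of the adult means covers opposite shifts in single runs. In SOA, the run of Mark1 had 28.5% and its flanks 7.18%, while the run of Dlgap2 had 39.6% and its flanks 71.3%.

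**Figure D3:**
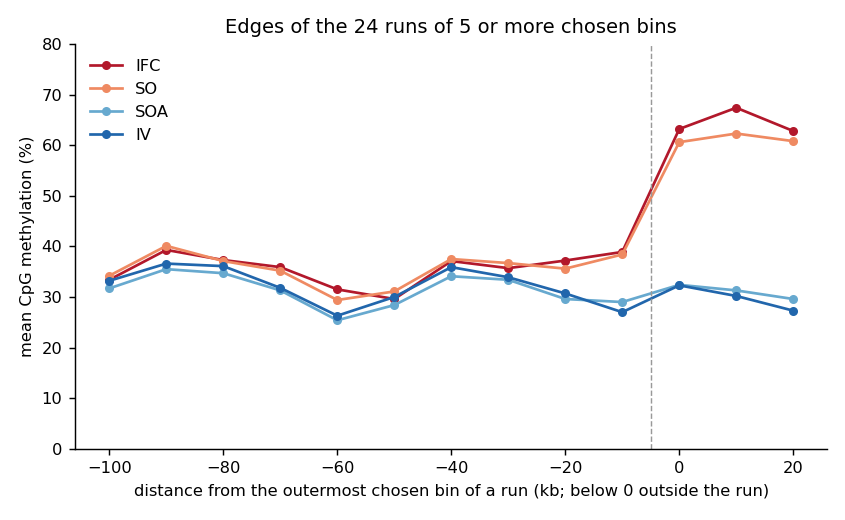
Group means of CpG methylation (%) against the distance in kb from the outermost bin of the 24 runs of 5 or more prepubertal-high bins, with both ends pooled. Outside the runs (below 0) the differences are at most 10.6 points, and inside the IFC and SO means are at 60.6% to 67.4% and the SOA and IV means at 27.3% to 32.4%.

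Genes covered the bins more often than the genome at large. At least 1000 bp of a gene body lay in 839 of the 969 bins (86.6%), against 66.5% of all eligible bins, and 77.7% lay wholly in a gene, against 47.4%. The opposite pattern, high in SOA and IV, had 56.4% of its bins with at least that much of a gene. Put per bin, 0.993% of the eligible bins in genes and 0.305% of those outside were prepubertal-high. Sequence composition was close to that of the genome, with medians of 99.0 CpGs per bin against 101, a GC share of 43.5% against 44.2% and a soft-masked share of repeats of 20.6% against 23.8%. The nearest gene start was farther away, at a median of 34.0 kb against 24.8 kb. It was also farther in the bins of the opposite pattern, at 39.1 kb.

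The difference was seen at sparse as well as at dense CpGs of the bins. The calls are those that chose the bins, which largely fixed its direction, so the values are a description. The bins held 33.0% of their CpGs in stretches with at most 3 CpGs in 300 bases, where IFC and SO had 64.6% ± 3.35 (SD, n = 4) and 62.0% ± 2.97 (SD, n = 5), and SOA and IV 37.9% ± 2.09 (SD, n = 4) and 37.4% ± 2.65 (SD, n = 3). At 15 or more CpGs in 300 bases, which held 5.20% of the CpGs, the levels were 37.1%, 32.5%, 13.3% and 13%. The densest CpGs were thus less methylated in all 4 groups, and the prepubertal groups were above the adult groups in each of the 4 classes of density, by 21.7 to 28.5 points.

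At least 1 prepubertal-high bin lay in 440 of 25111 genes (1.75%), of which 355 were protein-coding. A single bin was found in 284 genes, 5 or more in 35 and 10 or more in 11. The last 11 genes held 205 bins (21.2%). The 35 genes with 5 or more had a median length of 301 kb, against 16.5 kb for all genes, and long genes hold more bins. A bin counts for every gene that covers it, as in Akap2, which overlaps Pakap.

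Transcription factors led the list. Tcf4, a basic helix-loop-helix factor, had 27 of its 35 eligible bins in the set. Its level in these bins was 86.2%, 86.3%, 84.5% and 82.5% in the IFC libraries and 83.0%, 81.1%, 77.7%, 79.9% and 82.1% in the SO libraries. It was 47.7%, 56.3%, 57.9% and 46.9% in the SOA libraries and 46.3%, 39.6% and 45.6% in the IV libraries. The gene was thus highly methylated in all prepubertal pools and at a middle level in the adult pools. The 5 bins before the gene had 4.85% in IFC and 5.30% in SO, against 5.92% in SOA and 11.3% in IV.

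Klf12 had 26 of 37 bins. The IFC libraries had 40.8%, 44.4%, 35.3% and 36.8% and the SO libraries 36.5%, 37.5%, 32.2%, 40.7% and 37.6%. The SOA libraries had 12.2%, 12.8%, 8.81% and 5.84% and the IV libraries 15.2%, 9.51% and 8.52%. Here the adult body was near the level of the DNA before the gene (8.39% in SOA and 11.2% in IV), and the prepubertal body was raised only to a middle level.

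Zfp521, a zinc-finger factor of neural and blood progenitors, had 24 of 28 bins, with an IFC mean of 70.2% ± 3.08 (SD, n = 4), an SO mean of 64.5% ± 3.41 (SD, n = 5), an SOA mean of 31.5% ± 1.57 (SD, n = 4) and an IV mean of 29.2% ± 2.60 (SD, n = 3). Its lowest prepubertal library had 59.1% and its highest adult library 33.1%. Npas3, a basic helix-loop-helix factor of the brain, had 24 of 70 bins, at 77.9% ± 4.70 and 76.5% ± 3.84 against 50% ± 5.53 and 44.9% ± 3.04 (SD, n as before). In its 46 other bins the levels were 61.7%, 60.4%, 53.8% and 52.7%, where a smaller difference follows from the rule. Zbtb20, a repressor needed in the developing hippocampus, had 16 of 38 bins, at 61.1%, 61.9%, 30.2% and 29.8%.

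**Figure D4:**
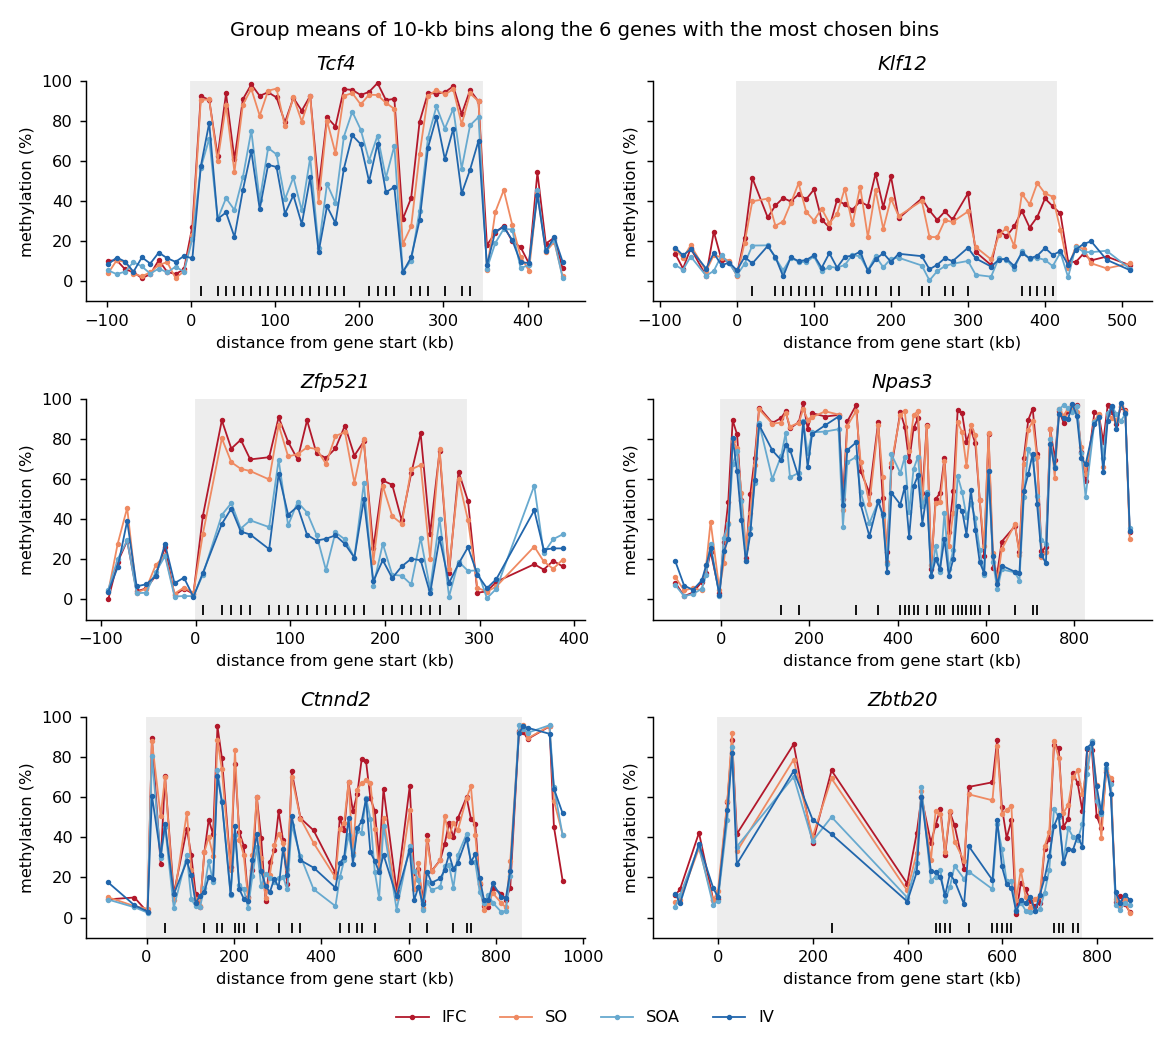
Group means of CpG methylation (%) in each eligible 10-kb bin along the 6 genes with the most prepubertal-high bins, against the distance from the annotated gene start in kb; grey marks the gene and ticks below 0 mark the chosen bins. In Tcf4, Klf12 and Zfp521 the IFC and SO lines stay above the SOA and IV lines over most of the gene and meet them near its ends, and in Npas3, Ctnnd2 and Zbtb20 they part in blocks.

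Among genes of neuronal contacts, Ctnnd2, which encodes a delta-catenin of neuronal junctions, had 21 of 66 bins, at 58.9%, 56.8%, 33.5% and 35.2% in IFC, SO, SOA and IV. Dlgap2 had 12 of 70 bins, at 68.7%, 64.7%, 39.2% and 38.1%. Slit2, a secreted ligand that guides axons through Robo receptors, had 6 of 14 bins, at 64.4%, 58.2%, 25.2% and 23.8%. No library of one side reached the other in these 3 genes, which the choice of the bins largely fixed. No chosen bin of Slit2 directly adjoined another, while 13 of the 16 bins of Atrnl1, an attractin-like membrane protein, were consecutive.

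Genes of signalling and of the cytoskeleton followed. Prkag2 had 15 of 24 bins and the widest separation of the 25 genes. Its IFC libraries had 66.5%, 70.2%, 63.5% and 71.8% and its SO libraries 62.1%, 67.5%, 57.9%, 57.3% and 56.5%. Its SOA libraries had 23.8%, 29.2%, 22.9% and 20.5% and its IV libraries 30.1%, 22.9% and 25.5%. In its 9 other bins the groups had 44.6%, 44.1%, 42.7% and 40.7%. Kif26b, a kinesin-like protein, had 14 of 39 bins, Pard3b, a polarity protein, 10 of 54, and Arhgap24, a GTPase-activating protein, 9 of 39. Mark1 and Sgpp2 each had 8 of 11, Ppp3ca, the catalytic subunit of calcineurin, had 7 of 22, and the long non-coding RNA gene 9530059O14Rik had 8 of 9, the highest share of the 25 genes. The last stood at 80.2% in IFC and 79.5% in SO, against 46.3% in SOA and 49.1% in IV, and its 4 eligible bins before the gene at 7.07% to 11.1%.

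The remaining genes of the 25 included Tox2 (8 bins) and Bbx (7), both with an HMG box, Pam (8), an enzyme that amidates peptides, 1700025G04Rik (7), and Akap2, an anchor of protein kinase A, Khdrbs3, an RNA-binding protein, and Dysf (6 each). Genes with 6 bins were ranked by the share of their eligible bins, which left out Mecom. In each of the 25 genes the lowest IFC or SO library was above the highest SOA or IV library over the chosen bins. The bins were chosen by this contrast, which largely fixed the separation, so nothing is read from it. The distance was narrowest in Kif26b, where SO3 had 47.9% and SOA1 43.0%, and next in Pam, where SO3 had 27.4% and IV1 21.7%.

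**Figure D5:**
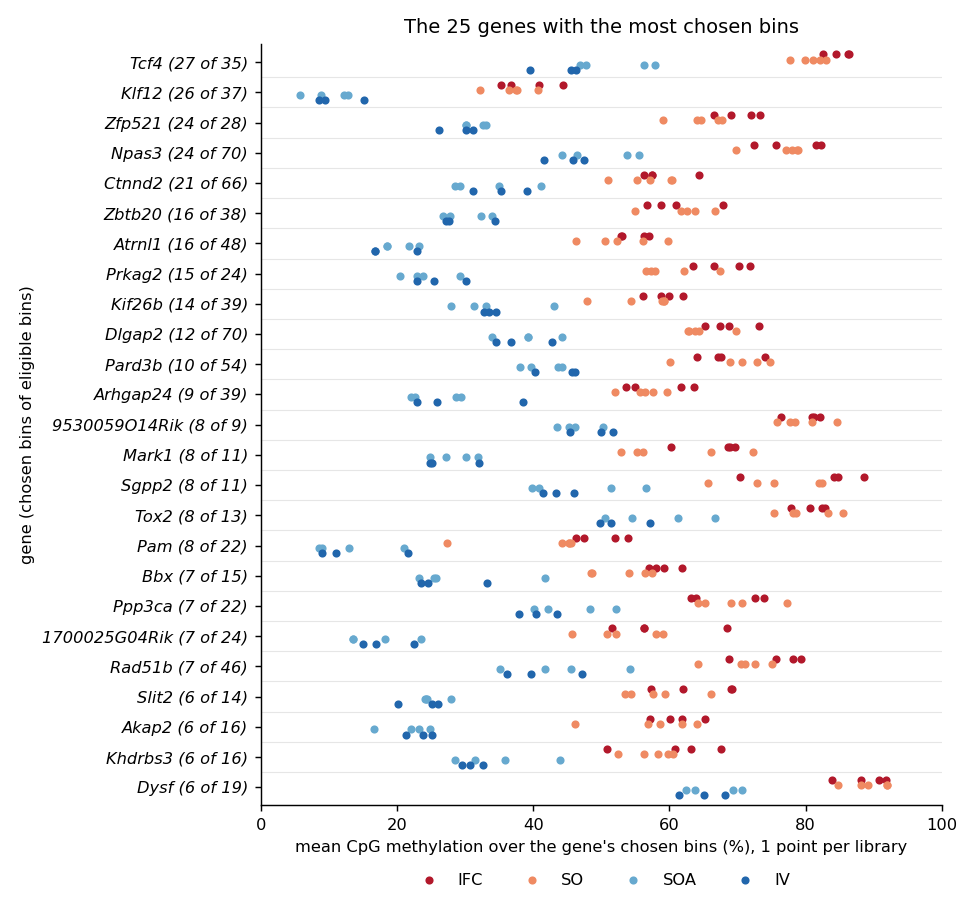
Mean CpG methylation (%) over the prepubertal-high bins of each of the 25 genes with the most such bins, with 1 point per library coloured by group and, beside the name, the chosen of the eligible bins. In every gene the 9 IFC and SO points lie to the right of the 7 SOA and IV points, as with a lowest of 27.4% against a highest of 21.7% in Pam and 83.9% against 70.7% in Dysf. The choice of the bins by this contrast largely fixed the separation.

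Outside these genes the groups were mostly close. Over the 25 genes, the mean of IFC and SO exceeded that of SOA and IV by a median of 30.5 points in the chosen bins and of 9.33 points in the other bins of the same genes. The other bins are those that the rule did not choose, which bounds their difference. In 5 genes they were within 5 points of 0, as in Atrnl1, with 36.1% in IFC and 43.2% in SO, against 40.3% in SOA and 42.0% in IV. In the eligible bins before the gene, 1 to 5 per gene, the median was -0.237 points and in those after it, also 1 to 5, -0.810, with 21 of 24 genes within 5 points of 0 on either side. An exception before the gene was Akap2, where IFC had 34.8%, SO 34.4%, SOA 21.8% and IV 25.1%. After Arhgap24 the difference ran the opposite way, with IFC at 35.5%, SO at 52.6%, SOA at 79.1% and IV at 76.9%.

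Of the lists of genes set up for this tissue, neurodevelopmental transcription factors held 120 prepubertal-high bins among 1344 (8.93%), in 11 of 48 genes, against 0.993% of bins in all genes. Most of these bins were in Tcf4, Klf12, Npas3 and Zfp521, and the other genes with at least 2 were Mecom (6), Prdm16 (4), Rora (4) and Pax6 (2). In Mecom the libraries overlapped, with a lowest prepubertal level of 45.3% and a highest adult level of 46.3%. Pax6, a paired-box factor of eye and brain, had 52.5% in IFC and 49.3% in SO against 15.8% in SOA and 17.5% in IV over its 2 bins. The list was drawn up when these results were known and is no independent evidence.

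Axon guidance ligands and receptors held 18 of 721 bins (2.5%) in 7 of 67 genes. Beside Slit2 these were Sema3a with 4 of 10 bins, Sema5b, Nrp2 and Slit3 with 2 each, and Efna5 and Sema4f with 1. Sema3a, a repulsive ligand, had 79.0% in IFC and 65.4% in SO, against 33.9% in SOA and 23.8% in IV. The adult levels of Nrp2, a receptor for semaphorins, were 20.8% and 18.7%, against 51.8% and 41.2% in IFC and SO, but its library of lowest prepubertal level, at 33.4%, was close to the highest adult one, at 31.0%. In Slit3, a relative of Slit2, SOA2 (67.3%) was above IFC4 (65.6%), so that the libraries overlapped.

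The list of synaptic adhesion genes held 24 of 1268 bins (1.89%). Of these, 12 lay in Dlgap2, which encodes a scaffold protein and no adhesion molecule. The share thus rested in large part on 1 gene that the name of the list does not cover. The others with at least 2 bins were Tenm3 (3), Dlg2 and Nfasc (2 each). Glutamate receptor genes held 6 of 351 (1.71%), of which Grid1 had 5. Bins of the opposite pattern, high in SOA and IV, made up 1.58% and 1.71% of the bins in these 2 lists, against 0.624% in all genes. Voltage-gated calcium and potassium channels held 5 of 698 (0.716%), below the share of all genes, with 2 in Kcnd3. The libraries of Dlg2 overlapped, with 40.5% in IFC3 and 46.9% in SOA4 on 2 bins with 20 to 93 calls. No prepubertal-high bin lay in the genes of the DNA methylation machinery (81 eligible bins in 17 genes), the enzymes of histone H3 lysine 36 and lysine 4 methylation (124 in 21), oocyte growth and maternal-effect genes (55 in 27) or cumulus and granulosa cell genes (73 in 20). At the share of 0.993% these 4 short lists would hold few bins in any case.

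The prepubertal groups were compared with each other by a logistic test of the calls in every eligible bin (likelihood-ratio test, two-sided, Benjamini-Hochberg adjustment over 127112 bins at 0.05, and a difference of at least 20 points). The rule asked that both groups be high and not that they be alike. A bin in which IFC or SO fell to the adult level was left out, which bounds the difference between them. The counts in either direction, set beside those of all eligible bins, are therefore fixed in part by the choice. IFC was higher in 13 of the 969 bins (1.34%), where 0.360% of all eligible bins were called this way, and lower in 1 (0.103%), where 0.859% were. The largest difference was in Pam, at chr1:97950001-97960000, with 62.5%, 92.3%, 77.3% and 54.5% in IFC1 to IFC4 and 50%, 40%, 31.9%, 44.4% and 26.3% in SO1 to SO5 (33.1 points, logistic test with adjusted p = 7.15e-05). All IFC libraries were above all SO libraries in this bin. In Prkag2, at chr5:24920001-24930000, IFC had 81.2% and SO 58.7%, with adult means of 20.9% and 19.9% (22.5 points, logistic test with adjusted p = 3.03e-06), and a further called bin was in Sema3a. The only bin lower in IFC was in 1300017J02Rik, at 30.2% in IFC and 54.1% in SO (logistic test with adjusted p = 0.00228), and was named because it was the only one. Its libraries overlapped, with 46.8% in IFC1 and 41.9% in SO3.

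The logistic test takes the calls as the only source of error. When the spread between libraries entered the test, as a quasi-binomial F test or limma on the percentages, 0 of the 969 bins were called, and 78 and 87 had an unadjusted p under 0.05 (8.05% and 8.98% of the bins, against 7.74% and 8.27% of all eligible bins). Without IFC4 the logistic test called 25 bins (2.58%, and 1.31% of all eligible bins), against 14 with all libraries (1.44% and 1.22%). IFC was above SO in 640 of the 969 bins (66.0%, against 52.4% of all eligible bins), with a median difference of 2.15 points. With every library thinned to the calls of the shallowest, IFC was above SO in 556 of 848 bins (65.6%), with a median of 2.53 points, and leaving out 1 library at a time gave 557 to 696 of the 969. Against SO1 and SO2 alone, the SO libraries under 12 M calls, IFC was above in 46.4% of the bins, with a median of -0.634 points, against 50.2% and 0.0234 points over all eligible bins. The direction thus rested on the deeper libraries SO3 to SO5, and their depth and other differences between them and SO1 and SO2 cannot be told apart.

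The adult groups were compared in the same way. The rule used both, as the higher of their means had to lie at least 15 points below the prepubertal groups. A bin in which 1 adult group reached the prepubertal level was thus left out. The test therefore cannot answer whether superovulation of adults was accompanied by such a change. IV had no shallow library and SOA only SOA4 as a deep one, so that depth went in part with these groups. SOA was higher in 3 of the 969 bins (0.310%), where 0.218% of all eligible bins were called this way, and lower in 1 (0.103%), where 0.106% were. Both quasi-binomial and limma tests called 0 bins, with 25 and 34 at an unadjusted p under 0.05 (2.58% and 3.51%, against 5.62% and 4.81% of all eligible bins). Of the bins higher in SOA, 2 lay in Tcf4. In one of them SOA1 to SOA4 had 81.0%, 81.2%, 75.9% and 73.5% and IV1 to IV3 50.9%, 43.8% and 72.7%, so that the libraries did not overlap, though IV3 was close to SOA4 (22.1 points, logistic test with adjusted p = 9.54e-06). In the other Tcf4 bin they overlapped, with 56.2% in SOA4 and 57.1% in IV3. The bin lower in SOA, at chr6:58810001-58820000, lay in no gene and had 76.5%, 33.3%, 33.3% and 53.2% in SOA1 to SOA4 and 77.3%, 79.2% and 67.9% in IV1 to IV3, so that the libraries overlapped. The count was 2 without SOA2 (0.206%, and 0.387% of all eligible bins) and 8 without SOA4 (0.826% and 0.777%). The median difference of SOA minus IV over the 969 bins was 0.192 points, with SOA above in 51.4% of them, against -0.754 points and 44.0% over all eligible bins. Over the 969 bins it ranged from -0.705 points without IV2 to 1.86 points without IV1 when 1 library was left out. The study calls its pools biological replicates, and the logistic p-values do not include the spread between them.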

How the data were processed

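The authors trimmed the PBAT reads and aligned them to the mouse genome, and per the submitters' processing notes used Trim Galore 0.4.4, cutadapt 1.9.1 and Bismark 0.19.0 (build GRCm38). The deposited files gave, for each CpG position, the percent methylation with the count of calls of either kind, methylated or not. The counts were used as deposited, and the percent column was not used. Libraries held 5218053 to 23065411 calls, and intervals (Wilson, 95%) cover counting error only. Calls were summed in bins of 10 kb, and the level of a bin in a library was the percent of methylated calls. A group's level was the mean over its libraries. Genes were taken from GENCODE vM21, and a bin belonged to a gene that covered at least 1000 bp of it.

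IFC was compared with SO, and SOA with IV, by a logistic likelihood-ratio test per bin over 127112 bins with Benjamini-Hochberg adjustment, and the procedure was tested on simulated data. Alternatives were a quasi-binomial F test, limma 3.58.1 on percentages, other minimum calls and limits, thinning to the shallowest library, a replicate block and leaving out each library. Named genes were the 25 protein-coding or long non-coding genes with the most bins, those of the 10 longest runs, and genes of the lists with at least 2 bins. Genes of called bins, Efna5, Sema4f and Pakap were named outside this rule, after their values were seen. The bins, the gene lists and these rules were chosen with earlier results of these data known. Python 3.11.15, numpy 2.4.6, scipy 1.17.1, R 4.3.3 and matplotlib 3.10.9 were used. Some items are not reported here.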

Additional observations from a re-analysis of the deposited data

Results flagged for a closer look

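Over the chosen bins of each of the 25 genes and over all 969 bins, 1 library of a group lay far from the others, by Dixon's test at the 95% level, in 7 of 78 groups of values, where chance alone gives such a gap in about 1 of 20. All 7 were values of single genes. The 3 IV libraries were too few to be examined. SO3 was low in Npas3 (69.8%) and in Pam (27.4%), and it was also the SO library with the lowest mean over all prepubertal-high bins, 55.0%. SOA2 was high in Bbx (41.8%) and in Slit2 (28.0%). IFC2 was high in Ctnnd2 (64.3%), SO1 was high in Dlgap2 (69.8%) and IFC4 was low in Mark1 (60.2%). In each of these 7 genes the library still lay on its own group's side of all libraries of the opposite groups. The choice of the bins largely fixed this too. The cause was not tested.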

How the results depend on the processing

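The number of prepubertal-high bins followed the limits of the rule. With at least 20 calls there were 455 of 57032 eligible bins, 51 in runs of 5 or more, in 269 genes, with 230 not overlapping and 90.3% touching a gene. Thinning to the shallowest library gave 854 bins, of which 288 did not overlap, against 429 of 969. The shares of all eligible bins under these settings are not given. Since the rule used this contrast, nothing is read from these counts of bins that did not overlap. A limit of 20 points gave 497 bins, 106 in such runs, 231 genes and 90.7%. A limit of 10 points gave 1958 bins, 405 in such runs, 936 genes and 82.9%. Genes with 5 or more bins numbered 14 with at least 20 calls, 21 with a limit of 20 points and 64 with a limit of 10, against 35. Joining only adjacent bins left 131 in runs of 5 or more. Leaving out 1 library at a time gave 894 to 1065 bins, 175 to 220 in such runs and 407 to 488 genes, and a difference over the 969 bins of 26.8 to 28.3 points. Of 525 values of the 25 genes under alternatives, 515 moved by less than 1 SD and 0 reversed, which the choice of the bins by this difference largely fixed.

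For IFC against SO, the quasi-binomial and limma tests called 0 bins (0 and 0.0936% of all eligible bins). No minimum difference gave 86 (8.88%, and 5.59% of all), and at least 20 calls gave 6 (1.32% and 1.14%). Leaving out a library gave 12 to 25 (1.24% to 2.58%, and 1.17% to 1.44% of all). For SOA against IV, the quasi-binomial and limma tests called 0 (0 of all), and no minimum difference gave 30 (3.10%, and 8.53% of all). At least 20 calls gave 1 (0.220% and 0.270%) and thinning 1 (0.118% and 0.364%). Leaving out a library gave 2 to 8 (0.206% to 0.826%, and 0.326% to 0.777% of all). With the replicate number as a block, 12 (1.24%, and 1.41% of all) and 8 (0.826% and 0.802%) bins were called. Same-numbered libraries did not deviate together (correlations of -0.0133 to 0.0812), so that they share only a number. The cause of these changes was not tested. The non-overlap and gene shares under alternatives, and the counts of bins with IFC above SO, were chosen after seeing the data. At library medians of 27 to 125 calls per bin, and as few as 10 in a bin, differences of a few points in single bins were not detectable.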

Other observations

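On chromosome X, 32 of 2943 eligible bins met the same rule, with means of 62.0% in IFC and 60.1% in SO, against 36.7% in SOA and 37.8% in IV, and 32 bins met the opposite one. Of the former, 12 lay in no gene, and Gripap1, Kcnd1, Pls3 and Xk had 2 each.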
